A study of Homo sapiens with 4 samples.

Results

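Z138 cells, an established line of mantle cell lymphoma (MCL), were profiled on 2 Affymetrix arrays, 1 from a control culture and 1 from a culture given CC-292. These are 2 of the 4 arrays of the study. The other 2 hold the same pair of conditions in REC-1, a second established MCL line. The members were chosen by array title: for every probe set, the value of the control array was subtracted from that of the CC-292 array. The protocol gives 1 uM CC-292 for 48 h, whereas the title of the treated array gives a dose of 1 mM at the same time, so the dose is not settled by the labels. For the control array neither a time in its title nor a vehicle is given. Each condition was a single culture on a single array, so no difference below has a replicate check, and none has a p-value. A difference between the arrays cannot be told apart from a difference between any pair of cultures.

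MCL is a B-cell malignancy in which cyclin D1 (CCND1) is placed under immunoglobulin heavy chain control. In B cells the antigen receptor, with its signalling chains CD79A and CD79B, activates the kinases LYN and SYK, which pass the signal through the adaptor BLNK to Bruton tyrosine kinase (BTK) and phospholipase C gamma 2 (PLCG2). From there it reaches calcium and NFAT, RAS and MAPK, and NF-kB. Inhibitory receptors such as CD22, CD72 and FCGR2B oppose it by recruiting the phosphatases PTPN6 (SHP-1) and INPP5D (SHIP-1). CC-292 is a covalent inhibitor of BTK. REC-1 is commonly described as a line sensitive to BTK inhibition and Z138 as one that is not. B cells that turn into plasma cells switch on PRDM1 and XBP1, widen the endoplasmic reticulum (ER) and lower much of the B-cell programme.

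The table held 49386 probe sets, of which 45259 carried 1 gene symbol and represented 18239 genes. A probe set was called bright when the brighter of its Z138 values was at least log2 6.6. A probe set can therefore pass through only the array on which it reads higher. A gene's difference is the median over its bright probe sets, in log2 units, and the SD beside it is the spread over those probe sets, which share 1 RNA sample and are not replicates of the culture. Of all genes, 6971 had a bright probe set, 3669 of them at least 2, and 11268 had none. The 2 arrays correlated at r = 0.991 over all probe sets, as a description. Over the genes with a bright probe set the median difference was 0.02 with an SD of 0.19, and 5% of the genes lay outside -0.39 to 0.36. The 9 hybridization controls, which carry no cell RNA, had a median difference of 0.09 (range -0.05 to 0.18). Of the B-cell markers, 4 of the 5 with a single-symbol probe set were bright, and CCND1 and the MCL transcription factor SOX11 were bright as well. None of the markers of T cells, NK cells, myeloid cells, erythroid cells and platelets, or stromal and epithelial cells was bright (5, 3, 6, 4 and 6 markers on the array). A longer T-cell list with 11 genes on the array had 1 bright member, the kinase LCK, at 7.12 with control and 6.85 with CC-292.

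Few genes differed by 1.5-fold on agreeing probe sets. Of the 3669 genes with 2 or more bright probe sets, 11 (0.3%) were at least 1.5-fold lower and 6 (0.164%) at least 1.5-fold higher with CC-292 on at least 2 of them, with none in the opposite direction. In REC-1 the same rule called 21 of 3728 genes lower (0.563%) and 29 higher (0.778%). The 11 lower genes in Z138 were AFF3, CD52, SMIM14, PRICKLE1, HVCN1, LMO3, PTPN6, SP110, LAPTM5, GM2A and BASP1. The 6 higher genes were TENT5C, CDK6, STS, IL6ST, HEY2 and HM13. Some calls rest on probe sets bright on only the array where they read higher, as for AFF3 (control) and TENT5C (CC-292). For such genes the agreement of probe sets partly follows from the filter. In bulk RNA, less of a transcript per cell and fewer cells that carry it cannot be told apart. BTK itself was bright on 2 probe sets and nearly level: 8.30 with control and 8.21 with CC-292 on one, and 9.11 with control and a difference of -0.11 on the other.

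**Figure D1:**
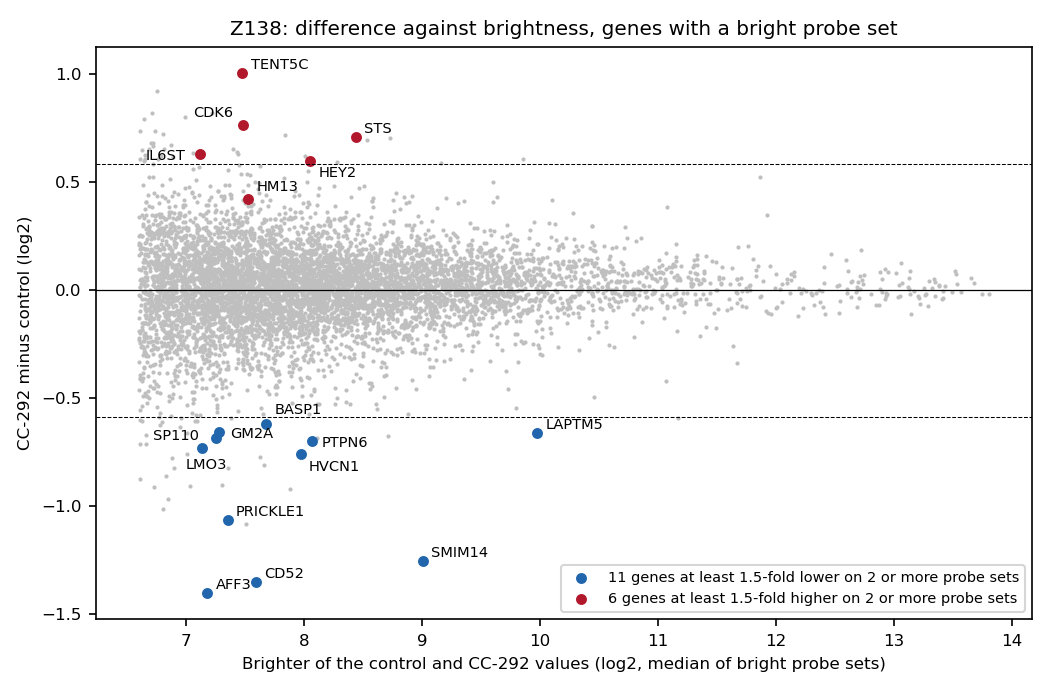
The difference between the CC-292 and control arrays of Z138 (vertical axis, log2) is plotted against brightness (horizontal axis, log2) for the 6971 genes with a bright probe set, 1 point per gene, with dashed lines at 1.5-fold. The 11 lower genes (blue) and 6 higher genes (red) are named, and the largest differences lie below log2 10. Grey points beyond the lines have fewer than 2 bright probe sets past 1.5-fold or a bright probe set in the opposite direction.

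A wider rule, added after the data were seen, asked for a brightest probe set of at least 6.6 and for 2 or more probe sets of at least 4.6 past 1.5-fold, with none of that brightness in the other direction. It called 21 of 5117 genes lower (0.41%) and 13 higher (0.254%). It added LRRK2, MCOLN2, SH3BP5, NFATC1, RIPOR2, GRK3, IL23A, LDLRAD4, PARP14, HLA-DQB1 and TRIM22 to the lower genes and left out LMO3. To the higher genes it added PRDM1, PTPRN2, SEC24C, TWSG1, CCPG1, PIBF1 and AKT2.

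**Figure D2:**
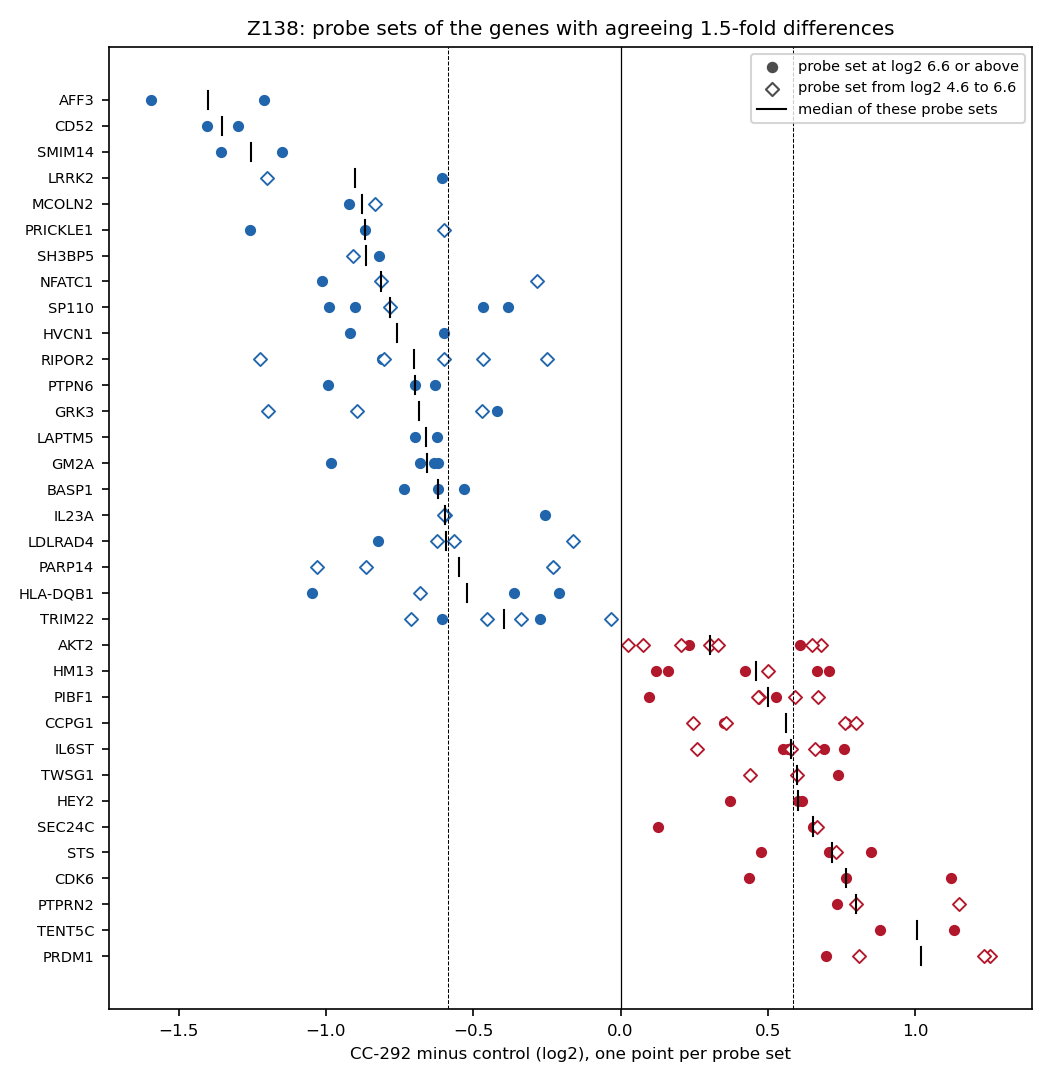
Each row is 1 of the 34 genes called by the wider rule, and each point is 1 probe set, placed by its CC-292 minus control difference (log2). Filled circles are bright probe sets, open diamonds those from log2 4.6 to 6.6, black bars medians and dashed lines 1.5-fold; within a gene all points lie on the same side of 0, from AFF3 at -1.40 to PRDM1 at 1.02.

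Promoter sequences are shown for 5 genes from the groups described below, to set the letters a transcription factor can read beside the measurements. Each is the 250 bases before the gene's start in RefSeq (GRCh38.p14), printed 5′ to 3′ on the strand of the gene. CD52 and VAV1 come from the lower B-cell genes, and capitals mark the PU.1 core GAGGAAG, the core shared by sites of PU.1 and its relative SPI-B, or its complement CTTCCTC. HSPA5, HSP90B1 and CRELD2 come from the ER group, and capitals mark the fixed letters of the ER stress response element (CCAAT, then 9 bases of any kind, then CCACG, on either strand; on the opposite strand it reads CGTGG, 9 bases, ATTGG), which ATF6 binds together with NF-Y at the CCAAT end.
CD52, chr1:26317708-26317957, plus strand: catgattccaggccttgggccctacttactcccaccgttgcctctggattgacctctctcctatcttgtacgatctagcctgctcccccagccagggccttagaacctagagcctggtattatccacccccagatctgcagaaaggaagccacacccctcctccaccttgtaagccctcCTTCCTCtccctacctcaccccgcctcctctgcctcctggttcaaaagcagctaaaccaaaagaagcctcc
VAV1, chr19:6772458-6772707, plus strand: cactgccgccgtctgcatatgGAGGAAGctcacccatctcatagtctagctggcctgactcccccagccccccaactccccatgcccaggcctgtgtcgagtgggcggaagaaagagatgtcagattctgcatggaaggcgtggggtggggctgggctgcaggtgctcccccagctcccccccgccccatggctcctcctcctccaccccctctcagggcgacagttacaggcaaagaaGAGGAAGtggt
HSPA5, chr9:125241344-125241593, minus strand: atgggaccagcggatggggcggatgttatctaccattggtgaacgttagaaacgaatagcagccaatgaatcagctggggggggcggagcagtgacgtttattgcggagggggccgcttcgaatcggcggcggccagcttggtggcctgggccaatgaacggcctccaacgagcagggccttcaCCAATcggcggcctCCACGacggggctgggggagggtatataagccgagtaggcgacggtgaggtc
HSP90B1, chr12:103930160-103930409, plus strand: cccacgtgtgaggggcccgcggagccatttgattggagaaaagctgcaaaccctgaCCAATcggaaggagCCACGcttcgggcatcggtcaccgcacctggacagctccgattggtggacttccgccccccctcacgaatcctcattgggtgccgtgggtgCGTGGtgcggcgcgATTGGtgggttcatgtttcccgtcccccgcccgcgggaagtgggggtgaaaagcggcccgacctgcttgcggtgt
CRELD2, chr22:49918384-49918633, plus strand: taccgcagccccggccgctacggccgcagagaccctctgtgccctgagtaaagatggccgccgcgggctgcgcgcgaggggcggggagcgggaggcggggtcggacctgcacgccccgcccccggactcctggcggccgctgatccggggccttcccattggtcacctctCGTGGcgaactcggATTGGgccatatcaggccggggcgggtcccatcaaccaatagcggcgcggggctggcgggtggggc

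The CD52 match lay 71 to 65 bases before the start on the opposite strand. VAV1 had 2 matches, the nearer one 11 to 5 bases before the start. In HSPA5 the element lay 66 to 48 bases before the start, and in CRELD2 80 to 62 bases before it on the opposite strand. HSP90B1 had 2, one on each strand, at 194 to 176 and at 89 to 71. A match is a run of letters, not a measured binding site.

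The list of inhibitory receptors and phosphatases gave the lowest median of the lists with at least 8 bright genes. Of the 16 bright members, 15 were below 0, with a median of -0.26, against 45% of all bright genes below 0, 55% above and a median of 0.02. CD22, a sialic-acid-binding receptor that recruits SHP-1, was at 7.51 with control and 6.43 with CC-292 on its bright probe set, a difference of -1.08. Its dimmer probe set also read lower, 4.71 and 4.36. PTPN6, the phosphatase SHP-1 itself, was at 8.30, 8.06 and 7.73 with control and at 7.30, 7.37 and 7.10 with CC-292. All 3 probe sets were lower with CC-292, and the gene's difference was -0.70 (SD 0.19, 1.62-fold). PTPRC (CD45), the transmembrane phosphatase that keeps SRC-family kinases ready for activation, was lower on all 4 bright probe sets by nearly the same amount, -0.53 (SD 0.02). Its values were 8.82, 8.66, 8.55 and 8.06 with control and 8.28, 8.14, 8.05 and 7.53 with CC-292. FCGR2B, the inhibitory Fc receptor of B cells, differed by -0.53 (SD 0.10) over 3 probe sets, and FCRLA, an intracellular Fc receptor-like protein, by -0.28 (SD 0.07) over 4. Chosen after their values were seen, CD72 differed by -0.48 and INPP5D by -0.29, each on 1 probe set. CBL, an E3 ligase for activated kinases, was the member above 0, at 0.25. The other 18 members on the array had no bright probe set. In REC-1 this list had a median of -0.07, with 8 members below 0 and 7 above, where 3774 of all 6217 bright genes were below 0 and their median was -0.06.

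Of 29 bright genes in the list of BTK and the proximal receptor pathway, 19 were below 0 (median -0.11). At least 1.5-fold lower were 3, against 0.617% of all bright genes lower by gene value. These 3, NFATC1, RASGRP1 and BLK, had 1 bright probe set each. Those of NFATC1 and RASGRP1 passed the filter only through the control array, so their count partly follows from the filter. NFATC1, a calcium-activated transcription factor, was at 6.80 with control and 5.79 with CC-292 on its bright probe set, and at 5.43 and 4.62 on the next one, with a median difference of -0.68 over all 5 probe sets. RASGRP1, which activates RAS downstream of phospholipase C, was at 7.31 and 6.41 on its bright probe set. All 4 dimmer ones read lower too, and the median difference over all 5 was -0.48. BLK, a SRC-family kinase of B cells chosen after its values were seen, differed by -0.76 on 1 probe set. BCL10, which links the receptor to NF-kB, differed by -0.31 (SD 0.03, 3 probe sets), ITPR2, a calcium channel of the ER, by -0.32 (SD 0.02, 2 probe sets), and IFITM1, an interferon-inducible membrane protein, by -0.50 (SD 0.03, 2 probe sets). VAV1, a RAC exchange factor chosen after its values were seen and shown above, differed by -0.45 on 1 probe set. The difference was -0.10 for BTK, -0.08 for CD79A (SD 0.03, 3 probe sets), -0.20 for CD79B on its bright probe set, -0.11 for SYK (SD 0.28) and -0.20 for PLCG2 on 1. The 2 dimmer probe sets of CD79B read 4.63 and 4.35 with control and 5.09 and 4.43 with CC-292. In REC-1 the list's median was 0.15, with 20 of 27 members above 0, and BTK was at 0.25.

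The PU.1 core occurred in 7 of 22 promoters found for the BTK list (31.8%: BCL10, RASGRP3, VAV2, IFITM1, MALT1, VAV1 and BTK), in 3 of 13 of the inhibitory list (23.1%: FCRLA, INPP5D and CD72) and in 4 of 17 of the genes lower by the wider rule (23.5%: CD52, SMIM14, BASP1 and LRRK2). It occurred in 3017 of 27305 promoters of this length and in 11.7% of those of genes with a bright probe set. These were the 3 highest shares of the sets searched. The core was in 12.5% of the surface antigen promoters (2 of 16) and 17.6% of the class II ones (3 of 17). It was in 14.3% of the plasma-cell list (2 of 14) and 9.09% of the genes higher by the wider rule (1 of 11). A link between the core and the differences was not tested. Among the 7 genes of the BTK list, IFITM1 was at -0.50, VAV1 at -0.45 and MALT1, the paracaspase, at 0.12. SPIB, the PU.1 relative of mature B cells, had 1 probe set, at 7.03 with control and 6.13 with CC-292, while SPI1, which encodes PU.1, had no bright probe set.

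**Figure D3:**
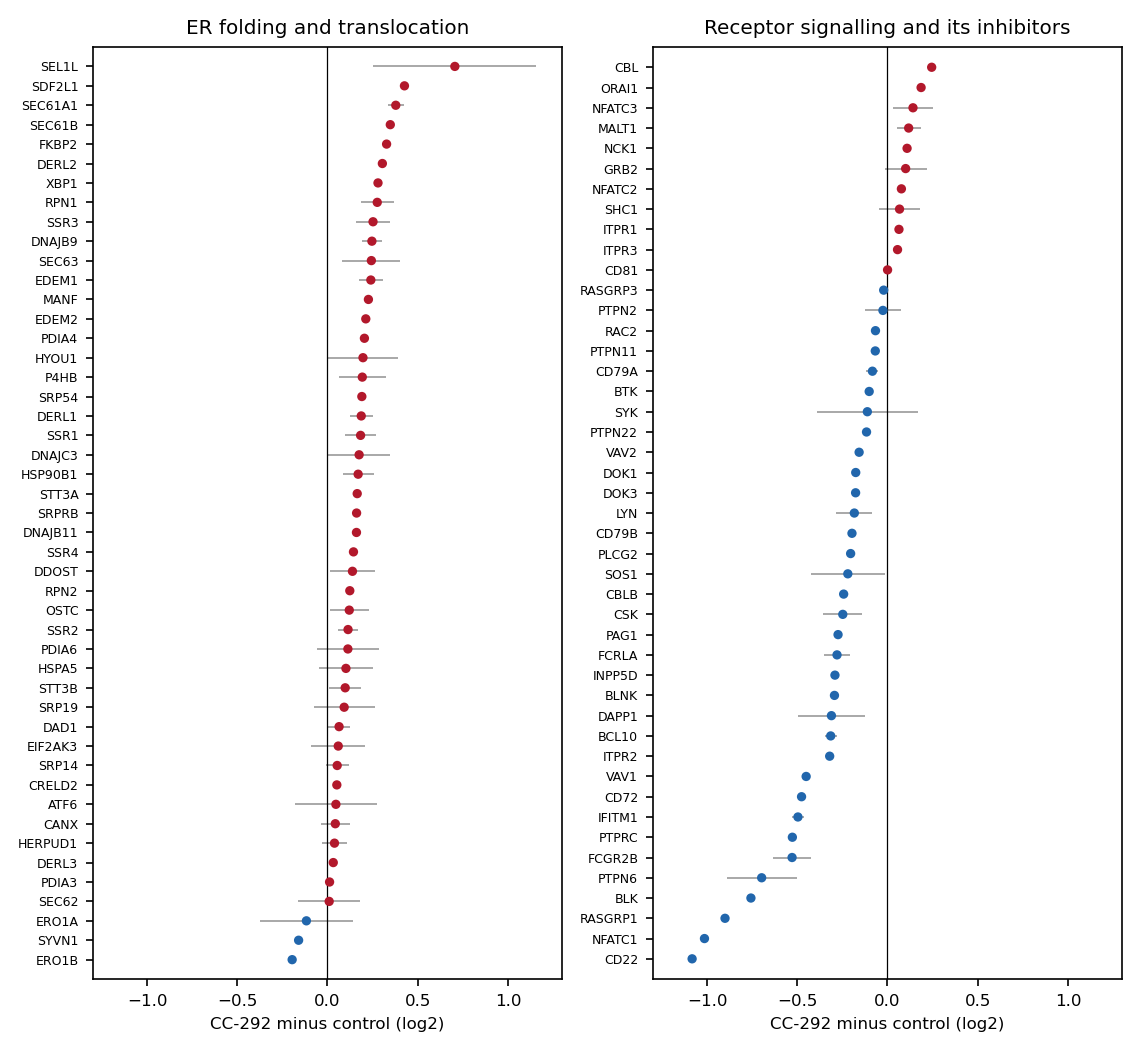
Gene differences (log2, horizontal axis) are drawn for the bright genes of the ER list (left, 47 genes). The right panel (45 genes) holds the receptor pathway list and the list of inhibitory receptors and phosphatases. Grey bars give the SD over bright probe sets where a gene has 2 or more. In the left panel 44 points lie above 0; in the right panel most lie below, down to CD22 at -1.08.

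Of 18 bright members of the receptor and MAPK response list, 14 were below 0, with a median of -0.13 and none at 1.5-fold. BTG1, an antiproliferative factor, differed by -0.44 (SD 0.01, 2 probe sets), LPXN, an adaptor of the paxillin family, by -0.24 (SD 0.04), and IER5, an immediate early gene, by -0.14 (SD 0.02). RGS16, which shortens G-protein signalling, differed by 0.35 (SD 0.01). Another 23 members of this list, FOS, JUN, EGR3 and DUSP6 among them, had no bright probe set. MYC was at 12.09 with control and 12.15 with CC-292 on 1 probe set. The exchange factors and GTPase activators of RAS, a family taken after the data were seen, had 7 of 8 bright members below 0 (median -0.25). Over all bright genes 45% were below 0, and the other 11 members of the family had no bright probe set. Alongside RASGRP1 the members below 0 included RASGRP2 at -0.66 and RASA4 at -0.61, on 1 probe set each. RASGRP1, RASGRP2 and RASA4 passed the filter only through the control array. In REC-1 4 of the 5 bright members of this family were above 0 (median 0.29), and RASA4 was at -1.18.

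Of the NF-kB lists the alternative pathway had the lower median, a difference that was not tested. Of the 8 bright members of the alternative pathway 7 were below 0 (median -0.11). CD40, a receptor that feeds this pathway, was at 7.87 and 6.89 with control and at 7.12 and 6.46 with CC-292. NFKB2, the precursor of the p52 subunit, was at 6.68 and 6.21 and its activating kinase MAP3K14 (NIK) at 6.94 and 6.57, each on 1 probe set close to the brightness minimum. TRAF3, which marks MAP3K14 for degradation, differed by -0.01 (SD 0.05, 3 probe sets). In the classical list 11 of 18 were below 0 (median -0.04), and NFKBIA, the feedback inhibitor that NF-kB induces, differed by -0.05 (SD 0.07). PLEK, a substrate of protein kinase C, was on the higher side at 0.28 (SD 0.02, 2 probe sets). In REC-1 the 2 lists had medians of -0.28 and -0.16, with NFKBIA at -0.32.

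CD52 had the lowest value among the B-cell surface antigens. This small glycosylphosphatidylinositol-anchored protein of lymphocytes and target of alemtuzumab was at 8.14 and 7.05 with control and at 6.73 and 5.75 with CC-292. Both probe sets were lower, by -1.35 on average (SD 0.07, 2.55-fold). MS4A1 (CD20) was among the bright genes of the array and differed by -0.33 (SD 0.09), with 12.04, 11.67 and 10.37 on the control array and 11.82, 11.34 and 9.98 on the CC-292 array. Of the 22 bright antigens 15 were below 0 (median -0.12), and all bright probe sets were below 0 in 9 of the 14 genes with at least 2 and above 0 in none, against 18.8% and 28.3% of all such genes. CD40 and CD22 belong to this list too. CD80, a costimulatory ligand, differed by -0.47 (SD 0.23).

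**Figure D4:**
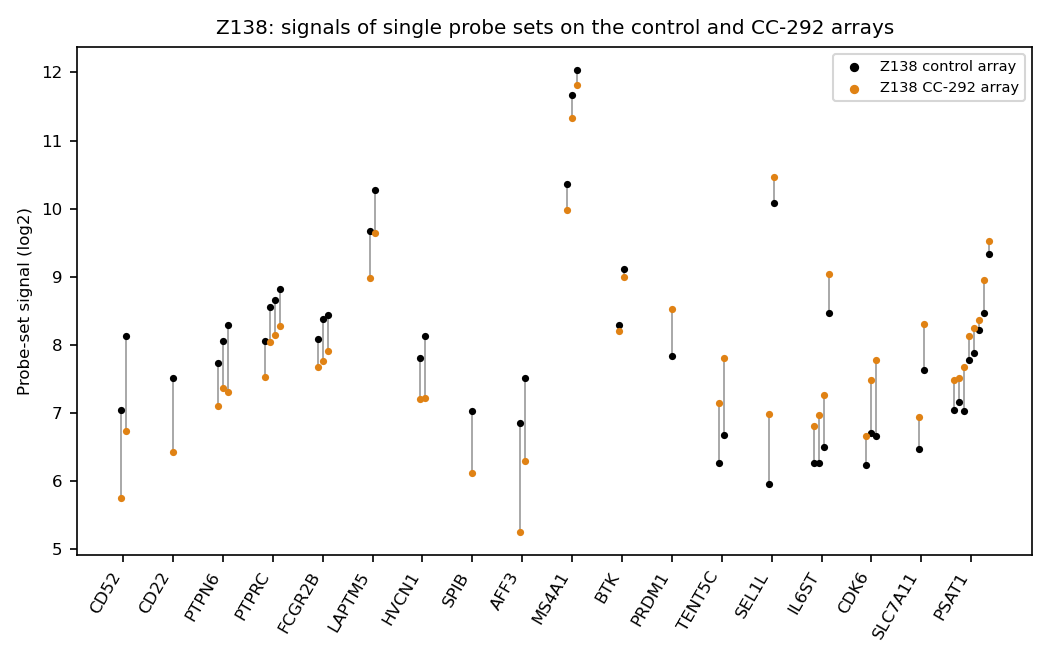
Signals (vertical axis, log2) of single bright probe sets are shown for 18 genes, with the control array of Z138 in black and the CC-292 array in orange, joined by a grey line. From CD52 to BTK the orange points lie below the black ones, by the least for BTK; from PRDM1 to PSAT1 they lie above.

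Transcription factors of B-cell identity were split. The list had 22 of 31 bright members below 0 and a median of -0.08. AFF3, a nuclear protein of the super elongation complex family that is abundant in lymphoid cells, gave the lowest value of all genes with a bright probe set: 7.51 and 6.85 with control, 6.30 and 5.26 with CC-292, a difference of -1.40 (SD 0.27, 2.64-fold). Its other 2 probe sets were dimmer, and its median over all 4 was -0.95. FOXO1, which drives B-cell genes when PI3K is low, differed by -0.43 (SD 0.06, 2 probe sets), and ID3, an inhibitor of E proteins, by -0.27 (SD 0.13, 3 probe sets). LEF1, a nuclear partner of beta-catenin, was higher on all 7 bright probe sets, by 0.36 with an SD of 0.04. ID2, an inhibitor of E proteins like ID3, was at 8.57 with control and 9.16 with CC-292 on 1 probe set. IKZF1 (0.03, SD 0.13), IKZF3 (-0.05, SD 0.11) and IRF4 (0.10, SD 0.04), which are central regulators of B-cell and plasma-cell states, were near level. In REC-1 IRF4 was at -0.70.

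The plasma-cell list stood at the other end. Of its 17 bright members 15 were above 0, with a median of 0.19, and 2 were at least 1.5-fold higher (0.545% of all bright genes). PRDM1 (BLIMP-1), the repressor that ends the B-cell programme, had a bright probe set at 7.84 with control and 8.53 with CC-292. Its dimmer probe sets read 4.86 and 6.12, 5.18 and 5.98, and 4.24 and 5.48. These 4 had a median of 1.02 (2.03-fold), and with the dimmest, at 3.65 and 4.29, the median over all 5 was 0.81 (1.75-fold). TENT5C (FAM46C), a poly(A) polymerase that stabilises mRNAs in plasma cells, was not in this list and had the highest value over bright probe sets: 6.67 and 6.27 with control, 7.80 and 7.15 with CC-292, a difference of 1.01 (SD 0.18, 2.01-fold). FKBP11, an ER prolyl isomerase of secretory cells, differed by 0.37 (SD 0.01, 2 probe sets). SEL1L, the scaffold of ER-associated degradation, was at 10.09 and 5.96 with control and at 10.47 and 6.99 with CC-292, so its probe sets differed in size (0.71, SD 0.45). The second of these passed the filter only through the CC-292 array. Over all 4 probe sets the median of SEL1L was 0.41, below 1.5-fold. Chosen after their values were seen, XBP1, the transcription factor of the secretory ER, was at 0.28 on 1 probe set and SDC1 (CD138), the plasma-cell surface marker, at 0.41 on 1. POU2AF1 at -0.19 and TNFRSF17 at -0.08, each on 1 probe set, were the 2 members below 0. In REC-1 the list's median was -0.35, with 11 of 13 members below 0.

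ER folding and translocation genes were shifted upwards by a small amount across nearly the whole list. Of 47 bright members 44 were above 0, with a median of 0.16, against 55% of all bright genes above 0. Of the 31 with at least 2 bright probe sets 20 had every one above 0 and none had every one below. Over all such genes the shares were 28.3% and 18.8%. SEC61A1, the pore of the ER translocon, was at 9.48, 8.50 and 7.86 with control and at 9.86, 8.82 and 8.25 with CC-292, a difference of 0.38 (SD 0.04). RPN1, a subunit of the oligosaccharyltransferase, differed by 0.28 (SD 0.09, 4 probe sets), and SSR3, of the translocon-associated complex, by 0.25 (SD 0.09, 4 probe sets). Of the genes whose promoters are shown, the ER chaperone HSP90B1 differed by 0.17 (SD 0.09, 7 probe sets), HSPA5 (BiP) by 0.10 (SD 0.15, 6 probe sets) and CRELD2 by 0.05 on 1. HERPUD1, an ER stress target, was at 0.04 (SD 0.07). ERO1B (-0.20, 1 probe set), SYVN1 (-0.16, 1 probe set) and ERO1A (-0.12, SD 0.26) were the members below 0. The ER stress response element was found in 6 of 42 promoters of this list (14.3%: ERO1B, CANX, HSPA5, HSP90B1, XBP1 and CRELD2), against 0.0806% of all promoters and 0.168% of those of bright genes, and its second form (ATTGG, any base, CCACG) in 3 (7.14%: HYOU1, HERPUD1 and SDF2L1) against 0.0513%. These shares describe the promoters of genes listed for their function in the ER and are not a result of the arrays. The differences of these 9 genes ran from -0.20 for ERO1B to 0.43 for SDF2L1. A link between the element and the differences was not tested. Vesicle genes next along the secretory route were chosen after the data were seen. Of 20 bright subunits of the COPII and COPI coats 14 were above 0 (median 0.11), and all 8 bright p24 cargo receptors were above 0 (median 0.08).

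Genes of the amino-acid stress programme, which the transcription factor ATF4 drives, leaned the same way. Of 38 bright members 33 were above 0, with a median of 0.15. SLC7A11, the cystine importer, was at 7.63 and 6.47 with control and at 8.30 and 6.94 with CC-292, a difference of 0.57 (SD 0.14). PSAT1, an enzyme of serine synthesis, was higher on all 8 bright probe sets (0.36, SD 0.16). SLC1A4 and SLC1A5, which carry neutral amino acids, differed by 0.33 each (SD 0.19 and 0.07, 3 probe sets each). VLDLR, a lipoprotein receptor, was at 7.38 and 8.01 on 1 probe set. The stress-specific members ATF3, DDIT3 and CHAC1 had no bright probe set. In REC-1 32 of the 34 bright members were below 0 (median -0.39), with PSAT1 at -0.48 and SLC7A11 at -0.37. In the heat shock and oxidative stress list 22 of 29 were above 0 (median 0.09), and HSPA1B, an inducible HSP70, was at 6.18 and 6.99 on 1 probe set.

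**Figure D5:**
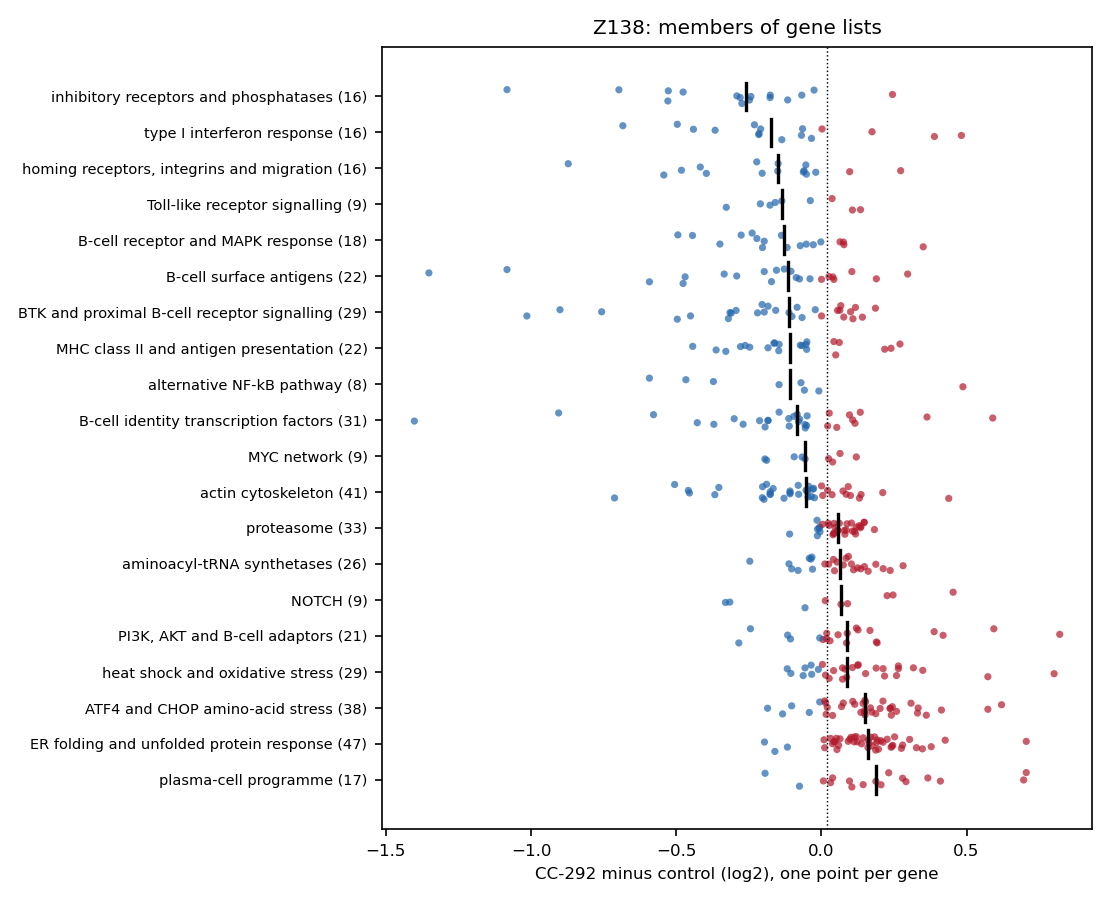
Each point is a bright gene placed by its CC-292 minus control difference in Z138 (log2), blue below 0 and red above; black bars are list medians, numbers in brackets count bright genes, and the dotted line is the median of all bright genes (0.02). The 12 lowest and 8 highest medians among lists with at least 8 bright genes are shown, from -0.26 for the inhibitory receptors to 0.19 for the plasma-cell list.

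Homing and cytoskeletal genes were mostly on the lower side. Of 16 bright homing receptors and integrins 14 were below 0 (median -0.15). S1PR1, the receptor that guides lymphocytes out of lymphoid tissue, was at 7.50 and 7.22 with control and at 7.03 and 6.73 with CC-292. ADAM28, a lymphocyte metalloprotease, differed by -0.42 (SD 0.08, 3 probe sets), and CD9, a tetraspanin, by -0.40 (SD 0.13, 6 probe sets). ITGB7, the beta chain of the gut-homing integrin, was at 6.61 and 5.74 on 1 probe set. CXCR4, the receptor for CXCL12, was close to level on all 4 probe sets (-0.06, SD 0.06), with 11.91 and 11.81 on the brightest. In REC-1 10 of 12 bright members of this list were above 0 (median 0.19), with CD9 at 0.83. Among 41 bright genes of the actin cytoskeleton list 29 were below 0 (median -0.05). CORO1A, an actin-binding protein of leukocytes, was lower on all 4 probe sets (-0.37, SD 0.11), ARHGAP17, a GTPase activator for RAC and CDC42, on all 3 (-0.45, SD 0.03), and SWAP70, a RAC regulator of B cells, on all 3 (-0.35, SD 0.08). MSN (moesin), which ties actin to the membrane, was higher on all 3 (0.21, SD 0.05). BASP1, a membrane-bound actin regulator, differed by -0.62 (SD 0.10, 3 probe sets). RIPOR2, an inhibitor of RHOA, was lower on all 6 probe sets of at least log2 4.6, with 7.66 and 6.85 on the brightest and a median of -0.70.

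HVCN1, the proton channel that associates with the B-cell receptor, was at 8.14 and 7.81 with control and at 7.22 and 7.21 with CC-292 (-0.76, SD 0.23). LAPTM5, a lysosomal protein that directs the receptor to degradation, was at 10.27 and 9.68 with control and at 9.65 and 8.98 with CC-292 (-0.66, SD 0.05). GM2A, the lysosomal GM2 activator, was lower on all 4 probe sets (-0.66, SD 0.17). MCOLN2, an endolysosomal cation channel, was at 7.88 and 6.47 with control and at 6.96 and 5.63 with CC-292. The lysosome and autophagy list as a whole had 18 of 34 bright members below 0 (median -0.02). SH3BP5, which binds BTK and restrains it, was at 7.36 and 6.03 with control and at 6.54 and 5.12 with CC-292. LRRK2, a GTPase and kinase linked to Parkinson's disease and present in B cells, was at 7.08 and 6.53 with control and at 6.47 and 5.33 with CC-292. SMIM14, a small membrane protein, was at 9.43 and 8.58 with control and at 8.07 and 7.43 with CC-292 (2.38-fold, both probe sets lower). PRICKLE1, of planar cell polarity, differed by -1.06 (SD 0.27) over 2 bright probe sets, and LMO3, a LIM-domain cofactor, by -0.73 (SD 0.04) over 3, although 1 of its dimmer probe sets read 5.01 and 5.07.

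Antigen presentation and interferon genes were low with exceptions. Of 22 bright class II genes 16 were below 0 (median -0.11). HLA-DMB, a chain of the peptide-exchange factor, was lower on all 4 bright probe sets (-0.44, SD 0.10), HLA-DOA, which restrains that factor, on both (-0.33, SD 0.13), and HLA-DMA on both (-0.25, SD 0.08). CIITA, the class II transactivator, was at 7.52 and 7.34 on 1 probe set. The main presenting chains HLA-DRA (-0.07, SD 0.09) and HLA-DPA1 (-0.05, SD 0.06), chosen after their values were seen, were near level. Of 16 bright interferon-response genes 12 were below 0 (median -0.17). SP110, a nuclear body protein, was lower on all 4 bright probe sets: 7.31, 7.29, 7.21 and 6.66 with control and 6.85, 6.30, 6.31 and 6.28 with CC-292. TRIM22, an antiviral E3 ligase, was lower on all 6 probe sets of at least log2 4.6, with 8.86 and 8.25 on the brightest. BST2 (tetherin) went the other way on all 3 probe sets (0.48, SD 0.07). In REC-1 12 of 13 bright members were above 0 (median 0.31), with SP110 at 0.52 and TRIM22 at 0.74. Another 27 members of the interferon list had no bright probe set in Z138.

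Cytokine receptors included one of the genes called higher. IL6ST (gp130), the shared signalling chain of the interleukin-6 family, was at 8.47, 6.51, 6.27 and 6.26 with control and at 9.04, 7.27, 6.97 and 6.82 with CC-292 (0.63, SD 0.10). CSF2RB, the shared chain of the interleukin-3 family, differed by 0.43 (SD 0.05, 2 probe sets). IFNGR1, a chain of the interferon-gamma receptor, and STAT6, which carries the interleukin-4 signal, differed by -0.43 (SD 0.10, 2 probe sets) and -0.41 (SD 0.13, 3 probe sets). The list as a whole was split, with 13 of 22 bright members below 0 (median -0.05).

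Cell-cycle and growth lists had medians near 0. CDK6, a partner kinase of cyclin D, was called higher: 6.66, 6.71 and 6.23 with control and 7.79, 7.48 and 6.67 with CC-292, all 3 probe sets higher (0.77, SD 0.34, 1.70-fold). CCND1 differed by 0.14 (SD 0.11, 4 probe sets) and SOX11 by 0.04 (SD 0.25). The 3 bright probe sets of SOX11 did not agree and ran from -0.06 to 0.42. CDKN1B (p27), the CDK inhibitor, was at 9.99 and 9.05 with control and at 10.08 and 9.13 with CC-292. MKI67, the proliferation marker, was higher on all 6 probe sets (0.22). Of 49 bright genes of G1/S and replication 31 were above 0 (median 0.04), with CDC6, which loads the replicative helicase, at 0.41 (SD 0.18), and of 53 G2/M genes 34 (median 0.05). In REC-1 46 of 49 and 49 of 52 were below 0 (medians -0.28 and -0.23), and CDKN1B was at 0.54. Nucleolar genes driven by MYC (median 0.04, 32 of 47 above 0), the proteasome (0.06, 26 of 33), oxidative phosphorylation (0.03, 28 of 45) and cytosolic ribosomal proteins (0.02, 43 of 68) lay close to the median of all bright genes. Cholesterol and fatty-acid synthesis had 22 of 33 below 0 (median -0.05), with LSS (lanosterol synthase) at -0.47 (SD 0.01, 2 probe sets). The adaptor and PI3K list had 16 of 21 above 0 (median 0.09). In it PIK3R3, a regulatory subunit, was at 7.68 and 8.28 on 1 probe set, AKT2 was higher on both bright probe sets (0.42, SD 0.27), and PLEKHA2, an adaptor that binds PI3K lipids, was lower on both (-0.28, SD 0.08).

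STS, steroid sulfatase, was at 8.67, 7.73 and 6.26 with control and at 9.15, 8.44 and 7.11 with CC-292 (0.71, SD 0.19). HEY2, a transcription factor of the NOTCH target family, was at 8.27, 7.43 and 6.34 with control and at 8.64, 8.05 and 6.95 with CC-292 (0.60, SD 0.14). HM13, the signal peptide peptidase of the ER, was higher on all 5 bright probe sets, from 0.12 to 0.71, with a median of 0.42. SEC24C, a cargo subunit of the COPII coat counted above, read 8.35, 5.96 and 4.83 with control and 8.48, 6.62 and 5.50 with CC-292, so its brightest probe set differed least.

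Genes with 1 bright probe set gave further large values that often lacked support. There were 30 such genes at least 1.5-fold lower and 31 at least 1.5-fold higher. Of the 17 lower ones with a further probe set between log2 4.6 and 6.6, 15 agreed in direction on a further one and 6 reached 1.5-fold there. Of the 22 higher ones, 18 agreed and 8 reached 1.5-fold. SP2, a zinc-finger factor, was at 5.83 and 6.76, the highest of these, but its median over all 5 probe sets was 0.08. BANK1, a B-cell adaptor that lowers AKT signalling, was at 5.89 and 6.71, but its other probe sets read 6.44 and 6.29, and 6.19 and 6.21. SIK2, a salt-inducible kinase, had a median of 0.10 over all 6. MAPRE2, which binds microtubule ends, was at 5.85 and 6.65 on its bright probe set and at -0.22 over all 7. On the lower side KMO, an enzyme of tryptophan breakdown, was at 6.73 and 5.82, DAPL1 at 6.85 and 5.88 and LINC02909, a non-coding transcript, at 6.83 and 5.97. TMSB15A, a thymosin, was at 7.12 and 7.84, and ZNF773 at 6.08 and 6.80 with a dimmer probe set at 6.06 and 5.86.

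Dimmer probe sets varied more. Among the 23599 probe sets below log2 4.6 on both arrays 62 were higher and 68 lower by 2-fold or more, and among the 6343 between 8 and 10 there were 0 and 3. The 10423 probe sets from 4.6 to 6.6, which the wider rule also uses, had the largest SD, 0.37. Of these, 547 were higher and 573 lower by 1.5-fold or more, against 86 and 79 of the 7105 from 6.6 to 8. Of the genes with no bright probe set, LOXL1 (1.45), LINC01119 (1.40), HBQ1 (1.31), OR52L1 (1.27) and NLRP7 (1.26) had the highest values, and MMEL1 (-1.51), SERPINA11 (-1.34), MAP2 (2.37-fold lower), THOC3 (2.37-fold lower) and SNORA78 (-1.20) the lowest. MAP2 had 3 probe sets and each of the others 1. LOXL1, a collagen cross-linking oxidase, read 3.31 and 4.76, within the range of the 23 background probe sets, whose highest value was 6.84 on the control array.

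Of the 21 genes lower by the wider rule in Z138, 17 were bright in REC-1, where 14 were above 0 and 3 below, against 2441 above and 3774 below of all 6217 bright genes there. Of the 13 higher ones 7 were bright in REC-1, where 5 were below 0 and 2 above. CD52 was at 0.49 in REC-1 and PTPN6 at 0.34, SMIM14 at 0.28 and AFF3 at 0.27. HM13 was at -0.40 and HEY2 at -0.22. NFATC1 (-0.35), MCOLN2 (-0.36) and SH3BP5 (-0.21) were the 3 lower genes below 0 in both lines. The difference between the lines has no test, because each side of it is 1 array.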

How the data were processed

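The values deposited by the authors are on a log2 scale, 1 signal per probe set and array, for which RMA and Affymetrix Expression Console 1.1 are named per the submitters' processing notes with no settings or genome build given in the sources used here. The log2 scale was inferred from the values. Per the labels' protocols, RNA was extracted with Trizol and 150 ng was labelled. Arrays were assigned to groups by title. Probe sets were named through a platform table, with 45178 of 45259 single-symbol probe sets matched to RefSeq by Entrez identifier; 1327 with several symbols and 2800 with none were left out of gene results.

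From these values the CC-292 minus control difference was computed, with no test. The number of arrays, 1 a side, limits the precision. Quartiles were nearly equal between the arrays (medians 4.63 and 4.63), so a shift of most genes in 1 direction would not show. Probe sets whose names end in _s_at or _x_at can bind transcripts of related genes, as in the HLA and histone families. The counting procedure was tested on simulated data.

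The genes named were those called, the 10 lowest and 10 highest with 1 bright probe set, the 5 lowest and 5 highest with none, up to 4 agreeing members and up to 2 with 1 bright probe set per list, and 22 fixed genes; others are said to be chosen after their values were seen, or belong to families and promoter sets. Of the fixed genes, 2 are not reported here, and PAX5 had no bright probe set. The 47 lists and the rules were chosen with earlier results of these data known. Alternatives were other brightness minimums and folds, every bright probe set past the fold, no _s_at or _x_at probe sets, centring, quantile and cyclic loess normalization (limma), the mean, the brightest or all probe sets of a gene, and the wider rule. Motifs were searched on both strands of the 250 bases before each RefSeq start, with the 50 bases after it left out. The CCAAT box by itself and the octamer, NF-kB, XBP1 and C/EBP-ATF cores were searched too and are not described.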

Additional observations from a re-analysis of the deposited data

Results flagged for a closer look

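Among the named genes, 1 was at least 1.5-fold lower in 1 line and at least 1.5-fold higher in the other by its bright probe sets. Among lists with at least 5 bright genes in Z138, 7 had medians of opposite sign and at least 0.1 (log2) in size in each line. These differences were not tested, because each condition of each line is 1 array. RIPOR2 was at -0.81 in Z138 on its bright probe set and at 0.88 in REC-1, and all 6 of its probe sets of at least log2 4.6 were lower in Z138. The ATF4 and amino-acid stress list had a median of 0.15 in Z138 and -0.39 in REC-1, the ER folding list 0.16 and -0.15, and the plasma-cell list 0.19 and -0.35. The list of BTK and the proximal receptor pathway had medians of -0.11 and 0.15, the homing list -0.15 and 0.19, the Toll-like receptor list -0.14 and 0.11, and the interferon list -0.17 and 0.31. The ER and plasma-cell lists share members such as SEL1L and XBP1.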

How the results depend on the processing

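The counts of 11 lower and 6 higher genes moved with every rule that sets brightness or fold. They were 42 and 19 with a minimum of log2 4.6, 3 and 0 with log2 8, 3 and 0 at 2-fold, 62 and 62 at a difference of 0.32 (log2), 5 and 2 without _s_at and _x_at probe sets, and 21 and 13 by the wider rule chosen after seeing the data. With every bright probe set past the fold there were 9 lower genes and 1 higher gene. Centring kept the same 11 lower genes, and quantile and cyclic loess normalization called 14 each, the 11 included. Normalization shifted the median of all genes by at most 0.02 in size. Under centring, quantile and cyclic loess normalization all 43 list medians stayed within 0.15, the pooled SD between bright probe sets of a gene. None of at least 0.1 in size changed sign there, but a median closer to 0 could do so within that tolerance. Without a brightness filter 3 list medians moved by more or reversed, and with the brightest probe set 1 did. The inhibitory list went from -0.26 to -0.11 without a brightness filter. MAPRE2 changed sign without a brightness filter, to -0.22. The causes were not tested. No paired analysis was possible because each group holds 1 array, so the groups share fewer than 2 replicate numbers.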
